A study of Mus musculus with 10 samples.

Results

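The C/EBP-ATF composite 8-mers are short DNA sequences built on the octamer TGATGCAA, which joins a half-site of each of 2 kinds of bZIP binding site. Its first 4 bases are the cAMP response element (CRE) half-site TGAC with the base at position 4 changed to T, and its last 4 bases are GCAA, the reverse complement of the C/EBP half-site TTGC. The members are all 8-mers without a CpG, merged with their reverse complements, that hold any of the 3 6-base windows of this octamer on either strand. They number 107 of the 32896 8-mers on the arrays, or of the 20349 that hold no CpG; the rule uses their sequence and no measured value. A further 21 8-mers hold a window and a CpG and are not members.

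Their binding was measured on 10 protein binding microarrays, glass slides that carry double-stranded DNA probes of known sequence. The arrays fall into 5 groups of 2. Methylated DNA was probed with CEBPB(V285A) or with CREB1(A297V), and unmethylated DNA with CEBPB(V285A), with CREB1(A297V) or with CREB1. All 3 proteins are GST-tagged bZIP DNA-binding domains of mouse origin, not full-length proteins, made from plasmids by cell-free transcription and translation. CEBPB(V285A) carries alanine in place of a valine of CEBPB, CREB1(A297V) carries valine in place of an alanine of CREB1, and CREB1 is the wild-type domain. Methylated arrays were treated for 3 h with M.SssI, an enzyme that methylates the cytosine of CpG. Wild-type CEBPB and CREB1 on methylated DNA were not analysed here. The series title names the question of whether CEBPB(V285A) binds sequences in the way CREB1 does.

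Proteins of the bZIP family bind DNA as dimers, and each monomer reads a half-site with its basic region. CREB1 homodimers recognise the CRE palindrome, while C/EBP homodimers recognise a palindrome of C/EBP half-sites. C/EBP-ATF response elements pair a half-site of each kind and are known as targets of heterodimers of a C/EBP protein with ATF4, for example in amino acid response genes. Each array here was given 1 protein, so heterodimers with ATF4 were not assayed. The 3 windows differ in which half-site they keep. The CRE-side window covers positions 1 to 6, the central window positions 2 to 7 and the C/EBP-side window positions 3 to 8, counted from the 5′ end of the octamer.

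The sequences on which the results turn are given 5′ to 3′, with the bases of any window in capitals and other bases in lower case. The octamer comes first, then the strongest member, members with the octamer shifted by 1 base in either direction, a member with the C/EBP-side window alone, members with the CRE-side window alone, and a palindrome with the central window.
composite octamer: TGATGCAA
strongest member: ttATGCAA
shifted towards the CRE side: aTGATGCA
shifted towards the C/EBP side: GATGCAAt
C/EBP-side window: ATGCAAtc
CRE-side window: taTGATGC
CRE-side window: gTGATGCt
central window: GATGCAtc

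The level of an 8-mer is a Z-score within an array. It is the median log2 signal of the probes that hold the 8-mer, minus the median over all 8-mers, in units of the scaled median absolute deviation. Each member lay on 16 to 38 probes. A pair of values joined by "and" gives replicates 1 and 2 of a group, and a single value is their mean. The typical spot signal of an array was between 345 and 1857, or 1.79 to 5.10 times the local background. Replicate arrays correlated over the members at 0.829 to 0.988, across 8-mers that share probes. CREB1(A297V) on unmethylated DNA had the narrowest signal range. Its top 8-mer exceeded the median of its array by 2.79 and 2.68 on the log2 scale, where the other arrays reached 4.73 to 6.05. Differences between groups were tested with limma over all 8-mers and called at a Benjamini-Hochberg adjusted p below 0.05. Nothing in the labels says that replicate arrays held separate protein preparations, so p-values measure no more than the spread between arrays, whose source may be technical. The CREB1(A297V) and CREB1 arrays on unmethylated DNA share an array identifier, and so do both methylated groups. In the other comparisons the identifier and the group cannot be told apart.

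The composite octamer was bound strongly by CEBPB(V285A) and weakly by CREB1(A297V) and CREB1. Its Z-score was 13.5 and 13.0 with CEBPB(V285A) and 2.67 and 3.58 with CREB1(A297V) on methylated DNA, and 12.1 and 11.2 with CEBPB(V285A), 2.03 and 2.40 with CREB1(A297V) and 2.50 and 3.25 with CREB1 on unmethylated DNA. The CEBPB(V285A) arrays stood above all others, and the CREB1(A297V) and CREB1 arrays overlapped. The signal of its probes, as a fold of the array median, averaged 10.8 with CEBPB(V285A) and 1.54 with CREB1(A297V) on methylated DNA, and 5.15, 1.22 and 1.36 for CEBPB(V285A), CREB1(A297V) and CREB1 on unmethylated DNA. Among all 32896 8-mers the octamer ranked 13 and 13 on the methylated CEBPB(V285A) arrays and 71 and 57 on the unmethylated ones, against 1086 and 970 on those of CREB1. Among the 8-mers without a CpG it ranked 5 and 5, 6 and 5, and 293 and 174 on the same arrays.

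The octamer differed between CEBPB(V285A) and CREB1 on unmethylated DNA by 8.77 ± 0.834 (SE, adjusted p = 6.65e-06, limma). Between CEBPB(V285A) and CREB1(A297V) the difference was 9.43 ± 0.834 on unmethylated DNA (adjusted p = 1.20e-06) and 10.1 ± 0.834 on methylated DNA (adjusted p = 2.93e-07). These 3 calls held without any single array. CREB1(A297V) and CREB1 differed by -0.660 ± 0.834 (adjusted p = 0.627), which did not pass. In the authors' deposited table of 8-mer Z-scores, whose scale differs from the one used here, the octamer stood at 35.3 and 34.9 for CEBPB(V285A) and 2.65 and 4.68 for CREB1 on unmethylated DNA.

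The strongest member in 4 of the 5 groups was ttATGCAA, which is the octamer with the substitution G2T. It starts with TT, as the C/EBP half-site TTGC does, and keeps the same C/EBP-side window. Its Z-score was 15.3 and 14.4 with CEBPB(V285A) and 3.00 and 4.16 with CREB1(A297V) on methylated DNA, and 14.1 and 14.5 with CEBPB(V285A), 2.27 and 3.38 with CREB1(A297V) and 1.44 and 1.72 with CREB1 on unmethylated DNA. It exceeded the octamer on every CEBPB(V285A) array and fell below it on both CREB1 arrays. The difference between CEBPB(V285A) and CREB1 on unmethylated DNA was 12.7 ± 0.966 (adjusted p = 8.36e-07). On CREB1 arrays 16 members had a higher mean.

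The 8 members that keep 7 bases of the octamer, shifted by 1 base, all stood below 5 with CEBPB(V285A) on unmethylated DNA. Of members shifted towards the CRE side, which lose the last A, aTGATGCA stood at 4.85 and 4.66 and gTGATGCA at 4.83 and 3.85 on unmethylated DNA. The member cTGATGCA stood at 3.12 and 3.11 there and tTGATGCA at 0.270 and 0.0415. The level was highest with A or G before the kept bases and near the array median with T before them. Of members shifted towards the C/EBP side, which lose the first T, GATGCAAc stood at 3.89 and 4.12 and GATGCAAt at 4.07 and 3.87 on the same arrays. The other members of this kind were lower, GATGCAAa at 1.11 and 0.706 and GATGCAAg at 0.733 and 0.668. The level was highest with C or T after the kept bases.

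With CREB1, of the members shifted by 1 base only those with A or G before TGATGCA stood above the octamer. The CRE-side shift aTGATGCA stood at 3.03 and 4.68 on the CREB1 arrays and gTGATGCA at 3.04 and 3.91, each above the octamer on the same array. The member cTGATGCA stood at 1.04 and 1.18 and tTGATGCA at -0.326 and -0.0252, with means within the range of the means of the C/EBP-side shifts. Of these, GATGCAAt stood at -0.417 and 0.230 there, and GATGCAAc, the highest of its kind, at 0.828 and 1.62. For aTGATGCA, CEBPB(V285A) and CREB1 did not differ past the threshold on unmethylated DNA (0.901 ± 0.522, adjusted p = 0.324). For GATGCAAt they did (4.06 ± 0.393, adjusted p = 7.61e-06).

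Over all 107 members, the median Z-score on methylated DNA was 1.72 with CEBPB(V285A) and 0.531 with CREB1(A297V). On unmethylated DNA it was 1.37 for CEBPB(V285A), 0.137 for CREB1(A297V) and 0.468 for CREB1. A mean Z-score of 3 or more was reached by 29 and 2 members on methylated DNA with CEBPB(V285A) and CREB1(A297V), and by 24, 0 and 8 on unmethylated DNA with CEBPB(V285A), CREB1(A297V) and CREB1. As a share that is 27.1% and 1.87% of members on methylated DNA, against 2.38% and 2.72% of all 8-mers without a CpG. On unmethylated DNA the share was 22.4% with CEBPB(V285A) and 7.48% with CREB1, against 1.70% and 0.835% of all 8-mers without a CpG. The members' share was above that of all 8-mers without a CpG with CEBPB(V285A) and with CREB1. With CREB1(A297V) the 2 members on methylated DNA are near that background, and were 0 without replicate 2. The 0 members on unmethylated DNA were 1 without replicate 1, against 1.78% of all 8-mers without a CpG.

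Below ttATGCAA and the octamer, the level with CEBPB(V285A) dropped steeply. On methylated DNA the next members were ATGCAAta at 7.15 and 7.14, tATGCAAt at 7.11 and 6.75 and ATGCAAtc at 6.71 and 6.52. On unmethylated DNA they were tATGCAAt at 5.37 and 5.47 and cATGCAAt at 4.74 and 4.83. These members hold ATGCAA followed by T, and none of their arrays reached the octamer's level. With CREB1(A297V) on methylated DNA the next members were again C/EBP-side members, tATGCAAt at 2.15 and 2.79, ATGCAAtt at 2.16 and 2.66 and ATGCAAct at 2.29 and 2.13. With CREB1(A297V) on unmethylated DNA, GATGCAtc stood second at 2.46 and 2.66, followed by aTGATGCA at 2.65 and 2.00. The 5 members highest with CREB1 were CRE-side members, led by taTGATGC at 3.32 and 4.63, aTGATGCA at 3.03 and 4.68 and TGATGCAt at 3.58 and 3.90.

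The members fall into sides by the windows they hold. The C/EBP-side window without the CRE-side one is held by 45, the CRE-side window without the C/EBP-side one by 37 and the central window alone by 24, and the octamer holds all 3. On unmethylated DNA, C/EBP-side members had a median Z-score of 1.86 for CEBPB(V285A), 0.541 for CREB1(A297V) and 0.301 for CREB1. CRE-side members had 1.42, -0.0939 and 1.15 for the same proteins. Members with the central window alone were near the array median, at 0.336, -0.0955 and 0.0631. The median was thus above 1 on either side with CEBPB(V285A), and on the CRE side alone with CREB1. Of the 8 members at a mean of 3 or more on CREB1 arrays, 7 were CRE-side members, 1 held the central window alone and 0 were C/EBP-side members.

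CEBPB(V285A) exceeded CREB1 on unmethylated DNA mostly on C/EBP-side members. Over all members 36 of 107 were called higher and 1 lower, against 3.67% higher and 2.53% lower of all 8-mers, and 4.17% and 2.44% of those without a CpG. Higher calls fell on 30 of 45 C/EBP-side members, on 3 of 37 CRE-side members, on 2 of 24 with the central window alone and on the octamer. The median difference was 1.78 for C/EBP-side and 0.256 for CRE-side members, against 0.00563 over all 8-mers. Without CEBPB(V285A) replicate 1 the total fell to 22 calls, all of them higher. Without either CEBPB(V285A) array the CRE-side count was 1 and the central count 0, while at least 20 C/EBP-side members were called without any single array. The central count was 1 without either CREB1 array or without methylated CEBPB(V285A) replicate 2.

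The C/EBP-side member ATGCAAtc had the third largest difference. It stood at 4.24 and 4.76 for CEBPB(V285A) and -0.915 and 0.0172 for CREB1, a difference of 4.95 ± 0.438 (adjusted p = 3.78e-06). Of the CRE-side members that were called, cTGATGCA had the largest difference, at 3.12 and 3.11 with CEBPB(V285A) against 1.04 and 1.18 with CREB1 (adjusted p = 0.00117). The single lower call was the palindrome GATGCAtc. It averaged 1.37 ± 0.154 for CEBPB(V285A) and 3.30 ± 0.0887 for CREB1 (SD, n = 2 arrays each, -1.93 ± 0.400, limma adjusted p = 0.00840). This call was lost without either CEBPB(V285A) array, with an adjusted p of 0.112 without replicate 1 and 0.0716 without replicate 2. It lay on 16 probes, the fewest of any member.

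CREB1(A297V) stood below CREB1 on most CRE-side members. On unmethylated DNA 27 members were called lower and 5 higher than with CREB1, against 10.8% and 8.13% of all 8-mers. The lower calls were 24 of 37 CRE-side members and 3 of 24 with the central window alone. The higher calls were 5 of 45 C/EBP-side members. The 8-mers without a CpG were called lower in 4.24% of cases and higher in 11.4%, and 5 of 45 is close to that background. Without CREB1 replicate 2 the total fell to 18 and the C/EBP-side count to 1. The central count was then 0. The C/EBP-side count was 3 without CREB1 replicate 1 and 3 without CREB1(A297V) replicate 2.

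The largest fall was that of taTGATGC, at 0.918 and 0.760 with CREB1(A297V) against 3.32 and 4.63 with CREB1 (-3.14 ± 0.470, adjusted p = 0.000178). The CRE-side member gaTGATGC stood at 0.689 and 0.770 against 2.40 and 4.52 (adjusted p = 0.00202). For gTGATGCt the values were 0.887 and 0.102 against 2.87 and 3.51 (adjusted p = 6.14e-05). Both CREB1(A297V) arrays lay below both CREB1 arrays on each of them, and the 3 calls held without any single array. The largest rise was that of taATGCAA, at 1.60 and 1.87 against 0.286 and 0.0883 (1.55 ± 0.363, adjusted p = 0.00593), which missed the threshold without CREB1 replicate 2 (adjusted p = 0.0525). The other named rises were those of aATGCAAt (difference 1.31 ± 0.322) and ATGCAAtt (1.30 ± 0.370). The call of aATGCAAt was lost without CREB1 replicate 1 (adjusted p = 0.0635). That of ATGCAAtt was lost without CREB1 replicate 2 (0.0849) or CREB1(A297V) replicate 2 (0.0876).

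CEBPB(V285A) exceeded CREB1(A297V) on members of either side. On unmethylated DNA 61 members were higher and 1 lower, against 14.1% and 11.5% of all 8-mers, and 8.21% and 14.9% of those without a CpG. The higher calls were 29 of 45 C/EBP-side and 26 of 37 CRE-side members, 5 of 24 with the central window alone, and the octamer. Without CEBPB(V285A) replicate 1 the central count was 3. The member cATGCAAt stood at 4.74 and 4.83 for CEBPB(V285A) against -0.523 and 0.242 for CREB1(A297V) (4.93 ± 0.395, adjusted p = 1.03e-06). The lower call was again GATGCAtc (-1.18 ± 0.400, adjusted p = 0.0359), which was lost without any 1 of the 4 CEBPB(V285A) arrays or of the unmethylated CREB1(A297V) arrays, with an adjusted p of up to 0.197.

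On methylated DNA both groups share an array identifier, but only the CREB1(A297V) arrays use another probe layout, so layout and protein cannot be told apart. There 59 members were higher with CEBPB(V285A) than with CREB1(A297V) and 0 lower, against 6.75% and 5.49% of all 8-mers, and 5.59% and 6.7% of those without a CpG. They were 34 C/EBP-side members, 19 CRE-side members, 5 with the central window alone and the octamer. The member ATGCAAta stood at 7.15 and 7.14 for CEBPB(V285A) against 1.35 and 2.04 for CREB1(A297V) (5.45 ± 0.400, adjusted p = 1.28e-07). The total was 37 without CEBPB(V285A) replicate 1 and 39 without CREB1(A297V) replicate 2. The CRE-side count was 9 and 8 without these arrays and 11 without CEBPB(V285A) replicate 2, and the central count fell to between 0 and 3 without any single one of the CEBPB(V285A) arrays or the methylated CREB1(A297V) arrays. On the C/EBP side at least 26 members were called without any single array. The groups of this comparison and those of CEBPB(V285A) with CREB1 have no array in common. The estimate of the spread came from all 10 arrays in both comparisons, so their calls are not independent. Of the members 35 were higher in both, which is 97.2% of the 36 and 59.3% of the 59. Of all 8-mers without a CpG 274 were higher in both, which is 32.3% of 848 and 24.1% of 1137.

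Methylation of the arrays went with higher C/EBP-side members for CEBPB(V285A), although no member holds a CpG. The octamer itself stood at 13.5 and 13.0 on methylated against 12.1 and 11.2 on unmethylated DNA (1.62 ± 0.834, adjusted p = 0.238) and ttATGCAA at 15.3 and 14.4 against 14.1 and 14.5, neither of which passed. Calls numbered 19 higher and 2 lower, against 3.84% and 3.73% of all 8-mers, and 5.03% and 1.53% of those without a CpG. Of the higher ones 18 were C/EBP-side members, whose median difference was 1.12, against 0.0509 for CRE-side members. The array identifier also differs between these groups, so it cannot be told apart from methylation.

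The rise was largest for GATGCAAt, at 6.43 and 6.60 on methylated against 4.07 and 3.87 on unmethylated DNA (2.55 ± 0.393, adjusted p = 0.00184). For ATGCAAta the values were 7.15 and 7.14 against 4.62 and 4.71 (adjusted p = 0.00211), and for ctATGCAA 3.60 and 3.39 against 1.34 and 1.21 (adjusted p = 0.00123). These 3 held without any single array. Lower calls numbered 2 of 107, close to the 1.53% lower among 8-mers without a CpG, and both were CRE-side members. Of these gTGATGCt stood at 1.44 and 1.49 against 3.36 and 3.18 (adjusted p = 0.00700), a call lost without CEBPB(V285A) unmethylated replicate 1 (adjusted p = 0.0860), methylated replicate 1 (0.107) or methylated replicate 2 (0.0696). The other was tgTGATGC, at 1.98 and 2.28 against 3.18 and 3.63 (adjusted p = 0.0330), whose call was lost without any 1 of the CEBPB(V285A) arrays or of the methylated CREB1(A297V) arrays (adjusted p up to 0.283). The C/EBP-side count was 5 and 8 without unmethylated and 6 and 10 without methylated CEBPB(V285A) replicates 1 and 2. The total of 21 calls was 5 and 9 without unmethylated and 6 and 10 without methylated CEBPB(V285A) replicates 1 and 2, and 32 and 33 without unmethylated CREB1(A297V) replicates 1 and 2.

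For CREB1(A297V), methylated arrays gave 19 higher and 4 lower members than unmethylated ones, against 10.4% and 11.1% of all 8-mers, and 10.9% and 10.7% of those without a CpG. The higher ones were 10 C/EBP-side, 6 CRE-side and 3 central members, and all lower ones held the central window alone. The largest rise was that of cATGCAAt, at 1.74 and 1.57 on methylated against -0.523 and 0.242 on unmethylated DNA (1.80 ± 0.395, adjusted p = 0.00402), followed by tATGCAAg (1.71 ± 0.326, adjusted p = 0.00152) and ATGCAAtg (1.60 ± 0.335, adjusted p = 0.00287). The largest fall was that of GATGCAtc, at 1.32 and -0.206 against 2.46 and 2.66 (adjusted p = 0.00210), a call lost without methylated replicate 2 (adjusted p = 0.0779). The same omission ended the call of ggGATGCA (-1.22 ± 0.251, adjusted p = 0.0608 without it), and that of gGATGCAt (-0.837 ± 0.272) was lost without unmethylated replicate 2 or any 1 of the methylated arrays of either protein (adjusted p up to 0.178). The total of 23 was 15 without unmethylated replicate 1, and 9 and 7 without methylated replicates 1 and 2. The same 3 omissions left 5, 5 and 3 C/EBP-side calls, and the CRE-side count was 2 without either methylated array. Without methylated replicate 1 the central members had 0 higher and 2 lower calls, and without methylated replicate 2 they had 0 lower calls. The methylated CREB1(A297V) arrays also use another probe layout, with 0% of probes at the slide position of the first array, so layout and group cannot be told apart here.

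The difference between methylated and unmethylated arrays was set against itself between the proteins, as that of CEBPB(V285A) minus that of CREB1(A297V). It was called higher for 4 members and lower for 1, against 1.42% and 1.64% of all 8-mers, and 1.82% and 0.717% of those without a CpG. The 4 were C/EBP-side members and the 1 was the CRE-side member gTGATGCt. The 1 lower call of 107 members is close to the 0.717% of 8-mers without a CpG. For the octamer the value was 0.709 ± 1.18 (adjusted p = 0.778, limma), which did not pass. No call was left without any 1 of the CEBPB(V285A) arrays or of the methylated CREB1(A297V) arrays, and the total was 8 without unmethylated CREB1(A297V) replicate 1.

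The 24 single-base changes of the octamer were compared by level, with no test between 8-mers. Substitutions are written with the octamer's base first, then its position from the 5′ end, then the new base, and in the sequences the changed base is in lower case and the unchanged ones in capitals.
T4C: TGAcGCAA
G2T: TtATGCAA
C6T: TGATGtAA
C6A: TGATGaAA
A8T: TGATGCAt
T1C: cGATGCAA
T4A: TGAaGCAA

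For CEBPB(V285A) on unmethylated DNA, 3 of the 24 variants exceeded the octamer at 11.6. They were T4C, which restores the CRE half-site and creates a CpG, at 17.3 and 16.8, G2T at 14.1 and 14.5, and C6T at 12.2 and 12.4. The next highest was C6A at 3.42 and 3.45, and the median over the 24 was 1.77. The lowest was T4A, at 0.343 and -0.157. The variants C6T and C6A are given because of their values. Any change at position 1, 5 or 7 left the level at 2.16 or less. On methylated DNA the same 3 variants exceeded the octamer, with T4C at 16.2 and 15.8, G2T at 15.3 and 14.4 and C6T at 13.6 and 13.3.

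CREB1 ordered the variants differently. With CREB1 the variants above the octamer at 2.88 were T4C at 9.83 and 14.8, C6T at 4.46 and 4.36 and A8T at 3.58 and 3.90, while G2T stood at 1.44 and 1.72. The lowest was T1G, the member gGATGCAA, at -1.29 and -0.965. The C6T variant holds none of the windows and is not a member. It was higher with CEBPB(V285A) than with CREB1 (12.3 against 4.41, adjusted p = 0.00496), a call lost without either unmethylated CEBPB(V285A) array (adjusted p up to 0.0752).

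For CREB1(A297V), C6T was the highest of the 24 variants, at 10.6 and 12.8 on methylated and 6.33 and 8.41 on unmethylated DNA. The octamer stood at 2.67 and 3.58 and at 2.03 and 2.40 on the same arrays. T4C stood at 8.86 and 9.29 on methylated and 4.05 and 7.67 on unmethylated DNA. On methylated DNA C6T did not differ between CEBPB(V285A) and CREB1(A297V) past the threshold (13.5 against 11.7, adjusted p = 0.480), where the octamer did. Whether the difference between proteins itself differs between these 2 sequences was not tested.

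For reference, the CRE palindrome TGACGTCA stood at 18.9 with CEBPB(V285A) and 21.6 with CREB1(A297V) on methylated DNA, and 23.2 with CEBPB(V285A), 14.5 with CREB1(A297V) and 30.8 with CREB1 on unmethylated DNA (means). The C/EBP palindrome TTGCGCAA stood at 18.2 with CEBPB(V285A) and 4.99 with CREB1(A297V) on methylated DNA, and 16.2 with CEBPB(V285A), 2.12 with CREB1(A297V) and 2.36 with CREB1 on unmethylated DNA. With CEBPB(V285A) the octamer lay below both palindromes on every array. With CREB1 it lay above the C/EBP palindrome, which stood at 2.09 and 2.62, and below the CRE palindrome at 29.1 and 32.5, on both arrays.

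The base before the CRE-side window went with the level of the members that hold it. Members with A before the CRE-side window (7 members) had a median of 3.10 for CEBPB(V285A) and 2.79 for CREB1 on unmethylated DNA, and those with G before it (6 members) 2.90 and 2.94. With C before it (7 members) the medians were 0.948 and -0.0774, and with T before it (7 members) 0.156 and -0.126. Members with A or G before this window thus had the higher medians with both proteins. For the base after the C/EBP-side window, the CEBPB(V285A) medians on unmethylated DNA were 4.23 with T, 3.38 with C, 1.54 with A and 1.13 with G. The CREB1 medians there were 0.187, 0.808, 0.670 and -0.186 in the same order. The members are few per class, overlap in sequence and share probes, so this is a description.

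The flanks were also compared among the 35 probes that hold the octamer, each with a variable region of 35 bases. The 35 probes also enter the scores of members that overlap the octamer, so they are not separate data. The split of probes by flanking base was chosen after seeing the data. Octamer bases are in capitals in 3 of these probes, the brightest with CEBPB(V285A) on unmethylated DNA, the brightest with the octamer as written on the probe strand that holds no CpG, and the dimmest. The first carries it as the reverse complement.
brightest probe: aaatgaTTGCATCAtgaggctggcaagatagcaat
probe as written without CpG: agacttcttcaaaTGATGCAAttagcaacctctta
dimmest probe: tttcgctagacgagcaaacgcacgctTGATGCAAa
The brightest probe had a signal of 29355 and 21074.5 for CEBPB(V285A) and 11825 and 3811 for CREB1(A297V) on methylated DNA, and 29235 and 22180 for CEBPB(V285A), 3229.5 and 5184 for CREB1(A297V) and 6190 and 5283.5 for CREB1 on unmethylated DNA. The second had 13695 and 11443 for CEBPB(V285A) against 2273 and 2395 for CREB1. The dimmest had 662.5 and 604 against 858.5 and 1288. These signals are not scaled between arrays. The array medians were 735 and 738 for CEBPB(V285A) and 1235 and 1516.5 for CREB1 on unmethylated DNA, and 345 and 357 for methylated CEBPB(V285A). Relative to the array median, the dimmest probe stood at -0.189 and -0.304 log2 units with CEBPB(V285A) and -0.393 and -0.167 with CREB1 on unmethylated DNA. In the first 2 probes the octamer has A before it and T after it, and in the dimmest T before it and A after it. The octamer starts at base 7 and 14 in the first 2 and at base 27 in the dimmest, so position differs as well.

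With CEBPB(V285A) on unmethylated DNA, the 35 probes had a median of 2.50 and 2.23 log2 units above the array median, and they ranged from -0.19 to 5.19 and from -0.30 to 5.07. With CREB1 the median was 0.42 and 0.47. Where the octamer had A or G before it and C or T after it (8 probes), the CEBPB(V285A) median was 4.29 and 4.25, and with the opposite flanks, C or T before and A or G after (8 probes), it was 0.69 and 0.89. Probes with A or G on both sides of the octamer lay between, at 2.36 and 2.10, as did those with C or T on both sides, at 2.60 and 2.59 (8 probes each). For CREB1 the median was 1.10 and 0.86 in the first setting and 0.27 and -0.03 in the second. By position, the CEBPB(V285A) median was 2.27 and 2.16 where the octamer starts at base 1 to 9 (8 probes), 2.98 and 2.71 at base 10 to 18 (15 probes) and 1.58 and 1.65 at base 19 to 28 (12 probes). Among probes with a start at base 1 to 18, the CEBPB(V285A) median was 4.38 and 4.34 in the first flank setting (7 probes) and 1.44 and 1.38 in the second (5 probes). The 17 probes that carry the octamer as its reverse complement had a CEBPB(V285A) median of 2.98 and 2.81, and the 18 that carry it as written 1.69 and 1.65. Of the 35 probes 31 hold a CpG outside the octamer. The 4 without any had a median of 4.86 and 5.01 for CEBPB(V285A) on methylated DNA and 3.43 and 3.41 on unmethylated DNA. For the 31 the medians were 3.33 and 3.20 on methylated and 2.22 and 2.02 on unmethylated DNA. The 4 include the brightest probe and the probe as written without CpG, both with A before and T after the octamer. CpG content and flanks thus differ together, and their part was not tested.

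The 16 probes with the strongest member, ttATGCAA, in the same 2 settings showed the same order. With A or G before and C or T after it (8 probes) the CEBPB(V285A) median was 5.07 and 4.81, and with C or T before and A or G after (8 probes) 1.32 and 1.23 on unmethylated DNA. For CREB1 the median was 0.32 and 0.35 in the first setting and 0.06 and -0.06 in the second, so that these probes were near the array median in either. Probes of an array are not replicates, and neighbouring bases also place half-sites of other kinds, whose part was not tested.

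Among the 21 8-mers with a window and a CpG, the methylated cytosine lies in the 8-mer itself, and 2 of them moved in opposite directions with CEBPB(V285A). The variant cGATGCAA (T1C) stood at 3.57 and 4.20 on methylated against 1.06 and 0.710 on unmethylated DNA (3.00 ± 0.302, adjusted p = 0.000187). With CREB1(A297V) it stood at 0.00105 and -0.0744 against 0.0990 and 0.413 (adjusted p = 0.522). The methylation difference itself differed between the proteins by 3.29 ± 0.427 (adjusted p = 0.00286), and these calls held without any single array. The 8-mer cgTGATGC stood at 4.02 and 4.37 on methylated against 7.75 and 6.88 on unmethylated DNA with CEBPB(V285A) (-3.13 ± 0.613, adjusted p = 0.00648), a call lost without unmethylated replicate 1 or either methylated array of CEBPB(V285A) (adjusted p up to 0.116). With CREB1 it stood at 5.74 and 7.19 on unmethylated DNA, above every member. These 2 8-mers were named after their values were seen.

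Across the 107 members, group means of CEBPB(V285A) on methylated and unmethylated DNA correlated at 0.941, and at 0.893 without the octamer and ttATGCAA. CEBPB(V285A) and CREB1 on unmethylated DNA correlated at 0.491, and at 0.542 without these 2. Over all 8-mers these pairs of groups did not stand apart in this way. There, single arrays of CEBPB(V285A) and CREB1 on unmethylated DNA correlated at 0.884 to 0.906. Those of CEBPB(V285A) on methylated and unmethylated DNA correlated at 0.883 to 0.901. Members share probes and bases, so these values describe the set. The lowest members came from different sides. With CEBPB(V285A) on unmethylated DNA the lowest were TGATGCcc at -1.18 and -1.11 and GATGCAgc at -0.887 and -0.847, and GATGCAgc was also among the lowest pair with CREB1(A297V) on methylated and unmethylated DNA and with CEBPB(V285A) on methylated DNA. On CREB1 arrays the lowest were ATGCAAgc at -0.947 and -1.35 and gGATGCAA at -1.29 and -0.965, both of which hold the C/EBP-side window. The C/EBP-side member ATGCAAgc stood at 1.78 and 2.03 with CEBPB(V285A) on methylated DNA.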

How the data were processed

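The authors deposited, per the file headers, the median signal intensity and median background intensity of 40330 spots per array, linear and not background-subtracted, and a table of Z-scores per 8-mer, a score whose exact steps are not given in the sources used here. Proteins, DNA treatment and replicate numbers were taken from the labels. From the deposited intensity values, log2 signal was lowered by the median of 15 by 15 surrounding spots, taken as a median over probes holding each 8-mer (at least 8), centred on the array median and divided by the scaled median absolute deviation. No background correction was applied. The authors' deposited Z-score matrix, an alternative, ranked 8-mers with a Spearman correlation of 0.783 to 0.953 with these scores.

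Groups were compared with limma 3.58.1 in R 4.3.3 (lmFit, eBayes with a variance trend) on all 10 arrays with 5 residual degrees of freedom, in 7 comparisons. Tests were two-sided, adjusted by Benjamini-Hochberg over 32896 8-mers. The number of arrays limits the precision. On simulated arrays for CEBPB(V285A) against CREB1 with 32896 8-mers, a planted Z difference of 1 was called for 19.1%, of 2 for 77.9% and of 4 for 100% of 8-mers. In that simulation 32696 8-mers had no planted difference. The data had 1207 higher and 833 lower calls in this comparison, so their Benjamini-Hochberg threshold was less strict. The simulated shares therefore do not give the sensitivity of the comparisons reported here.

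Members, lists and tests were chosen with earlier results of these data known. The 8-mers named are the octamer, members shifted by 1 base, the 5 highest and 2 lowest members per group, the 3 highest and 3 lowest called members per comparison, and of the 24 single-base variants the extremes and the members, with 3 octamers for reference. Of these, some are given only as part of a count or range. Alternatives covered the variance trend, the score source, background correction, scaling, the local adjustment, probe filters, the arrays in the fit, a replicate block and leaving out each array.

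Replicate numbers were checked for pairing. The difference between replicates 1 and 2 correlated between groups at -0.213 to 0.333 over all 8-mers, above 0.1 in 2 of 10 pairs of groups. These were CREB1(A297V) with CREB1 on unmethylated DNA (0.333) and CREB1(A297V) on unmethylated with methylated DNA (0.163), both compared here. Over the members the same 2 pairs stood at -0.0296 and 0.142. The numbers were not taken to pair arrays.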

Additional observations from a re-analysis of the deposited data

Results flagged for a closer look

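The difference between methylated and unmethylated arrays was compared between CEBPB(V285A) and CREB1(A297V) in a single limma term, and 5 members passed, 4 with a larger methylated-minus-unmethylated difference for CEBPB(V285A) and 1 with a smaller one. Of all 8-mers 1.42% were called in the first direction and 1.64% in the second. The count fell to 0 without any 1 of the CEBPB(V285A) arrays or of the methylated CREB1(A297V) arrays.

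The CRE-side member gTGATGCt had a difference of differences of -2.01 (adjusted p = 0.0379), with CEBPB(V285A) at 1.44 and 1.49 on methylated and 3.36 and 3.18 on unmethylated DNA, and CREB1(A297V) at 0.608 and 0.800 on methylated and 0.887 and 0.102 on unmethylated DNA. For taATGCAA it was 1.94 (adjusted p = 0.0455), with CEBPB(V285A) at 3.71 and 4.60 on methylated and 2.61 and 2.58 on unmethylated DNA, and CREB1(A297V) at 1.41 and 1.29 and 1.60 and 1.87. For ATGCAAcc it was 1.80 (adjusted p = 0.0223), for ctATGCAA 1.71 (adjusted p = 0.0427) and for GATGCAAg 1.59 (adjusted p = 0.0250). Each of these 5 calls was lost without any 1 of the CEBPB(V285A) arrays or of the methylated CREB1(A297V) arrays, and those of gTGATGCt and ctATGCAA also without unmethylated CREB1(A297V) replicate 2. The adjusted p then reached 0.168 for gTGATGCt, 0.200 for taATGCAA, 0.136 for ATGCAAcc, 0.174 for ctATGCAA and 0.124 for GATGCAAg. The array identifier moves with methylation for both proteins, and the probe layout for CREB1(A297V) but not for CEBPB(V285A). Their part was not tested.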

How the results depend on the processing

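The octamer kept its sign and call under all alternatives for CEBPB(V285A) against CREB1 (leaving out an array, 8.28 to 9.26), CEBPB(V285A) against CREB1(A297V) on unmethylated (8.94 to 9.92) and methylated DNA (9.69 to 10.6), and stayed below the threshold for CREB1(A297V) against CREB1 (-1.04 to -0.285) and for methylation of CREB1(A297V) (0.457 to 1.36). For methylation of CEBPB(V285A) (1.12 to 2.11 without an array) it passed with no variance trend (1.62), the authors' Z-scores (29.1), normexp (2.40), median-centred log2 scores (1.07) and quantile normalization (5.19). For the difference between proteins in methylation (0.216 to 1.20 without an array) it passed with median-centred log2 scores (0.731) and quantile normalization (4.66), and reversed to -1.07 with no spatial adjustment. The cause was not tested.

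Counts of called members without an array were 22 to 42 for CEBPB(V285A) against CREB1, 18 to 33 for CREB1(A297V) against CREB1, 49 to 65 and 37 to 61 for CEBPB(V285A) against CREB1(A297V) on unmethylated and methylated DNA, 5 to 33 and 7 to 25 for methylation of CEBPB(V285A) and CREB1(A297V), and 0 to 8 for the difference between them. With log2 of signal over background the count was 18 for CREB1(A297V) against CREB1, 11 and 1 for methylation of CEBPB(V285A) and CREB1(A297V), and 0 for the difference between them. Median-centred log2 scores gave 58 for methylation of CEBPB(V285A) and 22 for the difference. No spatial adjustment gave 11, 11 and 1 for methylation of CEBPB(V285A), of CREB1(A297V) and the difference. Only the groups compared gave 39 for methylation of CEBPB(V285A). The authors' Z-scores gave 7 for methylation of CREB1(A297V) and 13 for the difference, normexp 14 and 1, and leaving out probes with a CpG-bearing half-site 2 for the difference. All other alternatives kept each count within 1.5 times. By side, higher calls on CRE-side members for CEBPB(V285A) against CREB1 were 3, and 0 with signal over background and 10 with median-centred log2 scores. Those log2 scores gave 11 CRE-side and 37 C/EBP-side higher calls for methylation of CEBPB(V285A), against 1 and 18. With a replicate block the counts were 37, 32, 62, 21, 23, 59 and 5, as without it.

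The median difference of CRE-side members between CEBPB(V285A) and CREB1 was 0.256 and turned to -0.223 with normexp, where the median over all 8-mers shifted by -0.112. Of 609 alternative values for 29 named members' differences, 491 kept sign and call, 118 kept the sign and lost the call and 0 reversed. With 2 arrays per group, differences near 1 Z unit can be missed, though some were called. For CEBPB(V285A) against CREB1(A297V) on unmethylated DNA, 61 of 107 members were called higher. The median difference over all members was 1.01 there. Members with a mean Z of 3 or more were 14 for CEBPB(V285A) on unmethylated DNA and 0 for CREB1(A297V) on methylated DNA with normexp, 3 for CREB1(A297V) on unmethylated DNA with quantile normalization and 1 without probes with a CpG-bearing half-site, and for CREB1 5 with signal over background and 3 with no spatial adjustment.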
